A study of Mus musculus with 41 samples.

Results

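This report covers the comparison of the injured mouse kidney 7 days after ischemia with the kidney of mice that had no operation. The members were chosen by title: the 6 libraries of the first cohort titled UIRI d7 and the 6 titled Control, which are 12 of the 41 libraries of the series, 1 of them of unassigned reads, and all genes of the count table were read. UIRI stands for unilateral ischemia-reperfusion injury, in which the blood supply of 1 kidney is clamped and then reopened. Per the design text, the mice of this cohort were males 8 to 10 weeks old, and all mice other than those of the Control group had their left kidney made ischemic for 21 min at a core body temperature of 34 °C. The UIRI d7 mice kept both kidneys, went through a sham nephrectomy on day 3 and were killed on day 7. No source used here names the genotype or strain of this cohort. Control mice had neither operation, so clamping, sham surgery and injury cannot be told apart between these groups. The labels do not say which kidney of the Control mice was taken. Each library was made from RNA of a section of the kidney pole with a kit that reads the 3′ ends of messenger RNA (QuantSeq), so the values are whole-tissue averages over tubules, vessels, interstitium and leukocytes.

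Most of the kidney's mass is tubule. The proximal tubule reclaims filtered glucose, amino acids, phosphate and protein, burns fatty acids in mitochondria and peroxisomes to pay for it, and is the segment most sensitive to loss of blood flow. After ischemia, surviving tubule cells lose their mature transport programme, re-enter the cell cycle and switch on injury and developmental genes. Cells that recover regain the mature state, while cells that fail to recover keep a pro-inflammatory state next to macrophages and matrix-producing fibroblasts.

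Control libraries held 12888852 to 30753380 counts and UIRI d7 libraries 5090418 to 17591854. The difference in total count had p = 0.039 (exact permutation test, two-sided, 6 against 6 libraries), and adjusted p = 0.065 over 5 such tests. With every library thinned to 5090418 counts, 16795 to 18595 genes were detected in Control and 17334 to 19113 in UIRI d7 (exact permutation p = 0.113, adjusted p = 0.141). Transcripts of ribosomal proteins took 1.51 to 1.95% of counts in Control and 3.06 to 3.64% in UIRI d7 (exact permutation p = 0.00216, the smallest that this design allows, adjusted p = 0.0054). UIRI d7 replicate 4 stood apart from its group: of 6118 genes with at least 20 CPM (counts per 1000000) in each of the other 5 libraries, 117 were more than 8-fold below the median of those 5, against at most 1 such gene in every other library. Its correlation with the other UIRI d7 libraries over genes was 0.881 to 0.939. Counts of gene lists without it are given beside several lists below. For neighbouring tissues, the summed level of 8 tested fat cell genes ran from 110 to 495 CPM in Control and from 54.8 to 202 CPM in UIRI d7. That of 9 urothelial genes ran from 22.9 to 209 CPM and from 131 to 203 CPM. The urothelial sum includes Sprr1a, which rose and on unscaled totals was at 73.9 to 94.9 CPM in UIRI d7. Such sums do not show how much fat or urothelium was present. The adrenal enzymes Cyp11b2, Dbh and Pnmt and the pancreatic Cpa1 were at 0 counts in all 12 libraries, Lep of fat cells was at 0 too, and Adipoq of the same cells ran from 0 to 8.7 CPM in Control and from 0.101 to 10.4 CPM in UIRI d7. The kidney's own defining markers, from Lrp2 of the proximal tubule to Nphs1 of the podocyte, were present in all 12 libraries.

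The injured kidney had less transcript of mature tubule genes and more of injury, matrix and leukocyte genes than the Control kidney. Of 15701 genes tested, 6218 (39.6%) changed at an adjusted p under 0.05 in edgeR's quasi-likelihood test with Benjamini-Hochberg adjustment, 3371 higher (21.5%) and 2847 lower (18.1%). The levels of Control and UIRI d7 libraries did not overlap for 3213 of the tested genes (20.5%). Changes in the upward direction reached further: 992 genes were more than 4-fold higher and 353 more than 4-fold lower, and 151 against 28 passed 16-fold. The median log2 fold change over all genes tested was 0.04. Leaving out UIRI d7 replicate 4 gave 6277 changed genes. The columns of the table carry sheet and library numbers that fall into blocks, and no label says what the blocks are. Another block held Control replicate 4 and UIRI d7 replicates 3, 5 and 6. Control replicates 5 and 6 stood in a block without UIRI d7 libraries, so block and group are partly mixed. With the block as a term 6416 genes changed. Only the first block held 3 libraries of each group, Control replicates 1, 2 and 3 and UIRI d7 replicates 1, 2 and 4. Fitted alone, this block gave 3233 changed genes, 1907 higher and 1326 lower. The calls of some genes described below were not made in that block (Actb, Avpr2, Car9, Ccng1, Cd59a, Cldn10, Col4a3, Csf1r, Cstb, Esrra, Hnf4a, Hspa5, Ifit2, Il15, Kdr, Klf15, Mfn2, Opa1, Pecr, Scnn1b, Serpina1a, Slc20a1, Tfrc, Tmsb4x, Upk1a and Upk2). The part of the smaller groups and of UIRI d7 replicate 4 in these lost calls was not tested. The genes called lower held 50.8% of all counts in the median Control library (49.1 to 57.0%) and 25.2% in the median UIRI d7 library (23.1 to 27.5%). The genes called higher went from 7.95% (6.66 to 8.33%) to 22.9% (21.1 to 24.6%). All levels below are in CPM on library sizes scaled by edgeR's TMM factors, a trimmed mean of log ratios. Fold changes are log2, UIRI d7 over Control, and SE is the standard error of the log2 fold change.

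**Figure D1:**
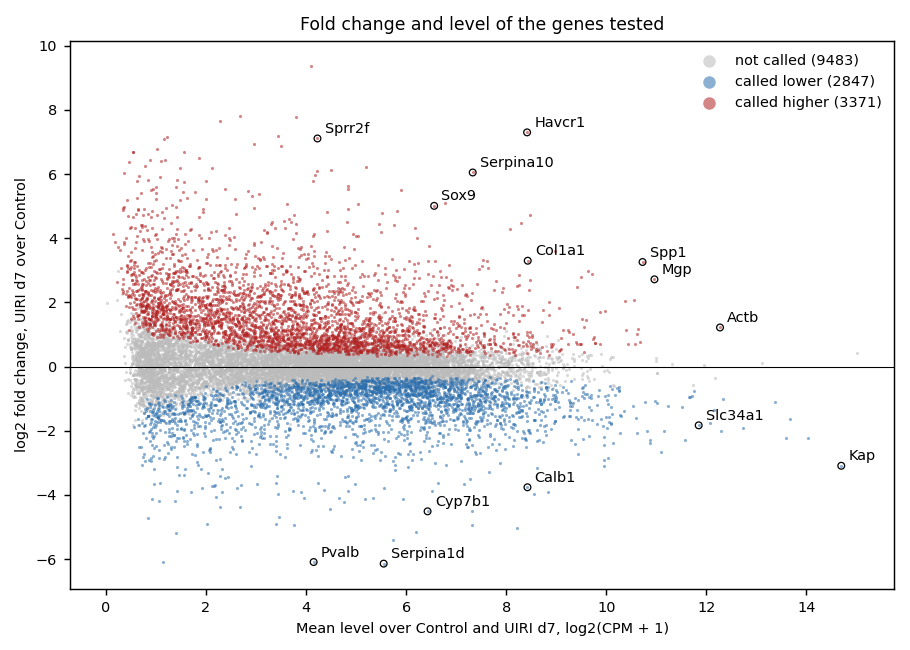
Log2 fold change of UIRI d7 over Control (vertical axis) against the mean level of each of 15701 genes (horizontal axis, log2 of CPM plus 1), with genes called higher in red, called lower in blue and the rest in grey. Named points run from Havcr1 at 7.30 to Serpina1d at -6.14, and the blue points reach higher levels than the red ones.

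The gene with the smallest p was Serpina10, a serine protease inhibitor of the clotting system, at 3.87 to 6.05 CPM (median 4.58) in Control and 242 to 423 CPM (median 294) in UIRI d7 (log2 fold change 6.05, SE 0.27, adjusted p = 2.56e-14). Every injured library stood far above every Control library. Sprr2f, a small proline-rich protein of barrier epithelia, was at 0 to 0.484 CPM (median 0.261) in Control and 21.4 to 48.4 CPM (median 35.7) in UIRI d7 (log2 fold change 7.11, SE 0.45, adjusted p = 4.83e-12). Lgi2, a secreted leucine-rich protein, and Fcrls, a receptor of resident macrophages, had log2 fold changes of 6.13 and 6.23. The corticosteroid-binding globulin Serpina6 gave 4 counts over the 6 Control libraries together and 787 over the 6 UIRI d7 libraries. Among genes that fell, Serpina1d, an elastase inhibitor of the same serpin family, was at 50.6 to 137 CPM (median 84.5) in Control and 0.386 to 2.5 CPM (median 1.15) in UIRI d7 (log2 fold change -6.14, SE 0.61, adjusted p = 8.71e-09). Members of 1 protein family thus stood at both ends of the comparison. Pvalb, the calcium buffer of the early distal convoluted tubule, was at 21.3 to 46.5 CPM (median 33.4) in Control and 0 to 1.04 CPM (median 0.328) in UIRI d7, with a library at 0 (log2 fold change -6.09, SE 0.71, adjusted p = 1.3e-07). Nccrp1, a glycan-binding protein, and the organic anion carrier Slc22a7 fell by log2 values of -5.41 and -5.16.

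By amount of transcript, the largest loss was in Kap, an androgen-regulated protein of the proximal tubule. Kap was at 32300 to 57800 CPM (median 47400) in Control and 1110 to 10800 CPM (median 5940) in UIRI d7 (log2 fold change -3.09, SE 0.42, adjusted p = 1.17e-06). Within UIRI d7, replicates 5 and 6 were at 1110 and 1360 CPM and the other 4 libraries at 5650 to 10800 CPM. Leaving out mitochondrial genes, other large losses by amount were in the carriers Slc34a1 and Slc12a1 and in the enzymes of fatty acid and ketone use Acsm2, Oxct1, Pecr and Slc27a2. Oxct1, which breaks down ketone bodies, was at 2310 to 3980 CPM (median 2950) in Control and 500 to 1120 CPM (median 519) in UIRI d7 (log2 fold change -2.30, SE 0.26, adjusted p = 7.45e-08). Among gains by amount, Mgp, an inhibitor of tissue calcification, was at 353 to 780 CPM (median 433) in Control and 1820 to 4590 CPM (median 3500) in UIRI d7 (log2 fold change 2.72, SE 0.23, adjusted p = 8.46e-10). Actb, the cytoskeletal actin, was at 2560 to 4070 CPM (median 2770) in Control and 4600 to 12900 CPM (median 6240) in UIRI d7 (log2 fold change 1.22, SE 0.23, adjusted p = 0.000114). Actb is often used as a stable reference, and here every injured library lay above every Control library.

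**Figure D2:**
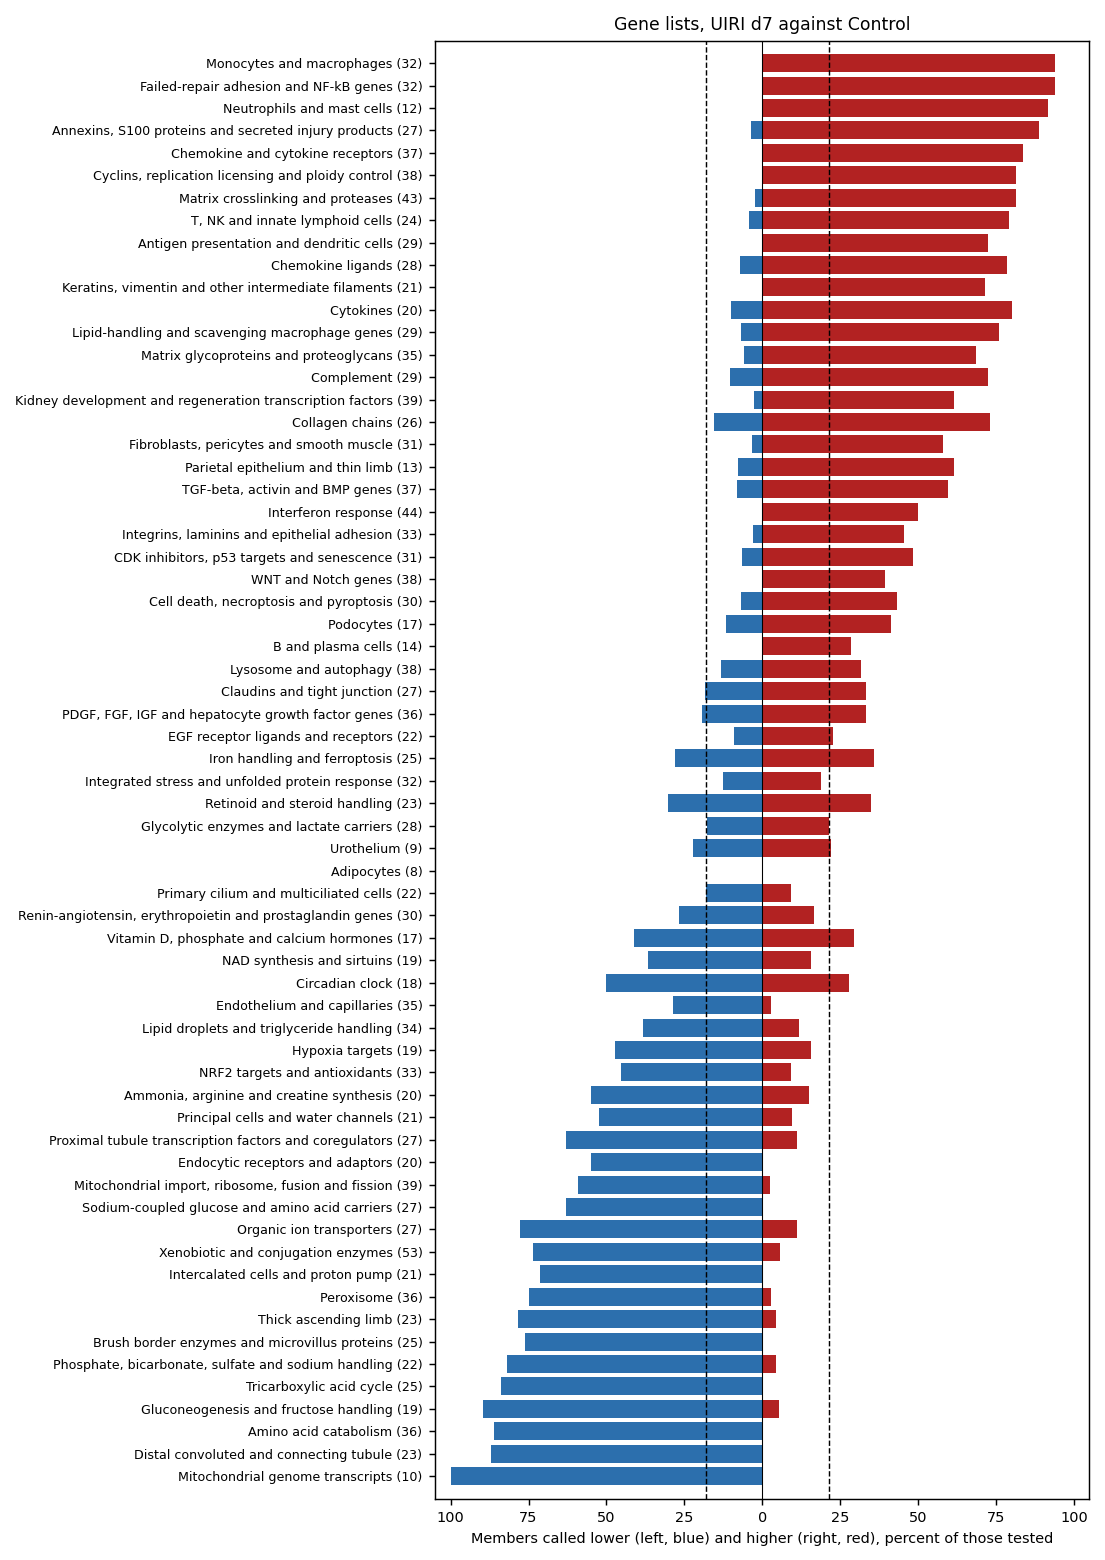
Share of the tested members of each gene list that were called higher (red, to the right) and lower (blue, to the left) in UIRI d7 against Control, in percent, with the number of members tested beside each name. Dashed lines mark the shares over all genes tested, 21.5% higher and 18.1% lower. Nephron segment and metabolic lists extend to the left and injury, matrix and leukocyte lists to the right.

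Proximal tubule carriers fell as a body. Of 27 carriers of glucose and amino acids 17 fell and 0 rose (1 without Control replicate 3; median log2 fold change -1.04), of 22 genes of phosphate, bicarbonate, sulfate and sodium handling 18 fell and 1 rose (-1.28), and of 27 organic ion transporters 21 fell and 3 rose (-1.72). In bulk tissue, fewer cells of a type and less RNA per cell cannot be told apart, and this holds for every segment and cell type below. Slc34a1, the main sodium-phosphate carrier of the brush border, was at 4910 to 7780 CPM (median 5470) in Control and 1280 to 2300 CPM (median 1460) in UIRI d7 (log2 fold change -1.83, SE 0.22, adjusted p = 3.13e-07). Slc6a19, the carrier of neutral amino acids, was at 306 to 563 CPM (median 424) in Control and 52.1 to 161 CPM (median 80.5) in UIRI d7 (log2 fold change -2.20, SE 0.32, adjusted p = 3.29e-06). Both genes were lower in every injured library than in any Control library. Slc5a2, the glucose carrier SGLT2 of the first tubule stretch, fell too (-1.16). The 1 sodium-dependent phosphate carrier that rose was Slc20a1, a carrier found in most cell types (0.77, adjusted p = 0.00348), with overlapping groups. Slc13a1, the sulfate carrier, was at 300 to 700 CPM (median 460) in Control and 279 to 563 CPM (median 430) in UIRI d7. Its groups overlapped over most of their range (-0.11, adjusted p = 0.784), and no loss was called for this carrier.

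The organic ion transporters had the lowest median of these lists. Slc22a6, the basolateral anion exchanger OAT1, was at 575 to 777 CPM (median 656) in Control and 67 to 162 CPM (median 139) in UIRI d7 (log2 fold change -2.32, SE 0.25, adjusted p = 3.42e-08). Slc22a8, its relative OAT3, was at 226 to 574 CPM (median 349) in Control and 20.1 to 59.7 CPM (median 40.6) in UIRI d7 (log2 fold change -3.27, SE 0.48, adjusted p = 4.01e-06). Slco1a1, which takes up steroid conjugates, had a log2 fold change of -3.62. The genes of this list that rose were Abcc3, Abcc4 and Abcb1b, pumps that export anions or drugs from cells. Abcc3 was at 0.425 to 0.848 CPM (median 0.623) in Control and 4.14 to 9.49 CPM (median 5.19) in UIRI d7 (log2 fold change 3.16, SE 0.30, adjusted p = 4.13e-09), and Abcc4 and Abcb1b had log2 fold changes of 0.67 and 1.31. The pumps Abcc2 and Abcg2 went down with the uptake carriers (-1.61 and -1.10), so the export pumps did not share a direction.

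Protein uptake and the brush border were lower in part. Of 20 endocytic receptors and adaptors 11 fell and 0 rose (1 or 2 without any 1 of Control replicates 4 and 5 and UIRI d7 replicates 1 and 2), and of 25 brush border proteins 19 fell and 0 rose. Lrp2, the endocytic receptor megalin, was at 819 to 2190 CPM (median 1540) in Control and 260 to 626 CPM (median 403) in UIRI d7 (log2 fold change -1.85, SE 0.36, adjusted p = 0.00014). Its partner Cubn, which binds filtered proteins with it, had a log2 fold change of -1.59 with overlapping groups. The meprin protease Mep1b was at 52.8 to 208 CPM (median 96.7) in Control and 0.618 to 15.5 CPM (median 5.84) in UIRI d7 (log2 fold change -4.13, SE 0.67, adjusted p = 1.78e-05). Cltrn, which brings amino acid carriers to the surface, was at 1970 to 2960 CPM (median 2190) in Control and 589 to 895 CPM (median 787) in UIRI d7 (log2 fold change -1.59, SE 0.26, adjusted p = 1.67e-05). Ace, which makes angiotensin II, fell (-1.84). Mme, a peptidase also called neprilysin, Dpp4 and Alpl, both surface enzymes, had log2 fold changes of -0.22, -0.34 and -0.18, and none of these 3 passed the test.

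Glucose production and amino acid breakdown fell at nearly every member. Of 19 genes of gluconeogenesis and fructose use 17 fell and 1 rose (median -1.75), and of 36 genes of amino acid breakdown 31 fell and 0 rose (-1.64). Pck1, the rate-limiting cytosolic step of glucose production, was at 336 to 1040 CPM (median 694) in Control and 25.8 to 180 CPM (median 164) in UIRI d7 (log2 fold change -2.34, SE 0.46, adjusted p = 0.000157). G6pc, which releases free glucose, was at 82 to 187 CPM (median 144) in Control and 22.4 to 36.3 CPM (median 25.9) in UIRI d7 (log2 fold change -2.31, SE 0.30, adjusted p = 8.85e-07). Fbp1 and the glucose-6-phosphate carrier Slc37a4 fell by log2 values of -2.07 and -1.90. The member that rose was Pck2, the mitochondrial form of the same step as Pck1, at 7.35 to 13.5 CPM (median 8.99) in Control and 13.8 to 25.4 CPM (median 20) in UIRI d7 (log2 fold change 1.05, SE 0.18, adjusted p = 3.53e-05). The cytosolic and mitochondrial forms of this enzyme moved in opposite directions. Kmo, an enzyme of the kynurenine branch of tryptophan breakdown, was at 87.7 to 120 CPM (median 114) in Control and 15.7 to 23.9 CPM (median 21.2) in UIRI d7 (log2 fold change -2.42, SE 0.14, adjusted p = 2.26e-12). Ivd of leucine breakdown and Gcdh of lysine breakdown fell by -1.95 and -1.97.

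Of 20 genes of ammonia, arginine and creatine synthesis 11 fell and 3 rose. Ass1, which with Asl makes the body's arginine in this segment, was at 360 to 755 CPM (median 567) in Control and 77.7 to 156 CPM (median 91.4) in UIRI d7 (log2 fold change -2.50, SE 0.23, adjusted p = 2.99e-09). Both arginases, which break arginine down, rose: Arg1, of the cytosol, was at 0 to 0.363 CPM (median 0.0674) in Control and 2.76 to 15.9 CPM (median 7.9) in UIRI d7 (log2 fold change 5.55, SE 0.71, adjusted p = 5.98e-07), and Arg2, of mitochondria, had a log2 fold change of 2.58 with overlapping groups. Gatm, which uses arginine to make creatine, fell (-1.79). Of 19 tested genes of NAD synthesis and sirtuins 3 rose (15.8%, against 21.5% of all genes) and 7 fell (36.8%, against 18.1%). Acmsd, which diverts tryptophan away from NAD, fell (-1.95), and Nampt of the salvage route did not pass (-0.52, adjusted p = 0.303). Nnmt, a nicotinamide methyltransferase, and Cd38, an NAD-cleaving enzyme, rose (3.05 and 1.59). Sirt3, a mitochondrial deacylase that uses NAD, fell (-1.52). Nnmt was at 0.765 to 2.4 CPM (median 1.23) in Control and 10.1 to 14.2 CPM (median 12.6) in UIRI d7.

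Glycolysis did not move as a list. Of 28 glycolytic genes 6 rose (21.4%, against 21.5% of all genes) and 5 fell (17.9%, against 18.1%), with a median of -0.09. Forms of the same enzyme differed in direction. Hk2, the inducible hexokinase, was at 1.56 to 8.7 CPM (median 1.85) in Control and 33 to 52.8 CPM (median 33.7) in UIRI d7 (log2 fold change 3.57, SE 0.36, adjusted p = 1.06e-08). Slc16a3, the lactate exporter MCT4, was at 0.68 to 2.66 CPM (median 1.76) in Control and 11 to 33.2 CPM (median 14.7) in UIRI d7 (log2 fold change 3.55, SE 0.38, adjusted p = 3.57e-08). Eno2, the enolase form of neurons, rose as well (2.36). The widespread forms Hk1, Pkm and Slc2a1 had log2 fold changes of -0.20, 0.25 and 0.18 and did not pass, while Aldoc, an aldolase, and Pfkm, a phosphofructokinase, fell (-1.80 and -1.26).

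Peroxisomes, detoxification and mitochondria were lower together. Of 36 peroxisome genes 27 fell and 1 rose (2 without Control replicate 4; median -1.33), of 53 enzymes of drug and steroid conjugation 39 fell and 3 rose (-1.50), and of 25 genes of the tricarboxylic acid cycle 21 fell and 0 rose (-1.17). The 1 peroxisomal gene that rose was Abcd2, a transporter of long fatty acids (1.97). Cyp7b1, a hydroxylase of oxysterols and steroids, was at 80.4 to 212 CPM (median 172) in Control and 4.13 to 10.5 CPM (median 7.15) in UIRI d7 (log2 fold change -4.51, SE 0.29, adjusted p = 6.53e-12). Inmt, a methyltransferase of indole amines, was at 657 to 753 CPM (median 707) in Control and 3.6 to 74.2 CPM (median 57.6) in UIRI d7 (log2 fold change -3.98, SE 0.53, adjusted p = 1.03e-06). The Control libraries lay close together for Inmt, while UIRI d7 replicates 5 and 6 were at 5.95 and 3.6 CPM and the other 4 at 48.2 to 74.2 CPM, the same libraries that were low for Kap.

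Suclg1, a subunit of succinyl-CoA ligase in the tricarboxylic acid cycle, was among the genes with the least spread within UIRI d7, at 238 to 260 CPM (median 255) against 526 to 592 CPM (median 585) in Control (log2 fold change -1.17, SE 0.13, adjusted p = 5.08e-08). Ogdh and Pdha1, subunits of the dehydrogenases that feed and run the same cycle, had log2 fold changes of -1.43 and -1.29. Of 10 transcripts of the mitochondrial genome 10 fell and none of those tested rose (median -1.97). Without UIRI d7 replicate 4, 8 of these fell. mt-Nd5, a subunit of complex I, was at 1240 to 1920 CPM (median 1650) in Control and 332 to 393 CPM (median 353) in UIRI d7 (log2 fold change -2.19, SE 0.17, adjusted p = 1.41e-10). Among 39 genes of mitochondrial import, translation and shape 23 fell and 1 rose. The fusion genes Mfn2 and Opa1 fell (-0.87 and -0.84), whereas the fission gene Dnm1l did not pass (-0.04, adjusted p = 0.839). The member that rose was Ucp2, an uncoupling protein with high levels in leukocytes (1.12).

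Transcription factors of the mature proximal tubule fell as well. Of 27 such factors and coregulators 17 fell and 3 rose (median -0.72). Hnf4a, a master regulator of this segment, was at 169 to 276 CPM (median 235) in Control and 29.3 to 122 CPM (median 80.1) in UIRI d7 (log2 fold change -1.43, SE 0.27, adjusted p = 0.000133). Ppargc1a, the coactivator of mitochondrial growth, was at 129 to 192 CPM (median 155) in Control and 64.2 to 85.5 CPM (median 67.5) in UIRI d7 (log2 fold change -1.15, SE 0.15, adjusted p = 1.03e-06). Ppara of fatty acid oxidation, Esrra of mitochondrial gene control and Klf15 of amino acid use fell by -1.49, -1.27 and -2.09. Those that rose included Foxj1, the factor of motile cilia, at 0 to 1.3 CPM (median 0.207) in Control and 1.95 to 18.4 CPM (median 9.03) in UIRI d7 (log2 fold change 4.77, SE 0.65, adjusted p = 1.42e-06). Other genes of cilia mostly did not pass (22 tested, 2 higher, 4 lower, or 2 lower without any 1 of Control replicate 3 and UIRI d7 replicates 3 and 5, and 4 higher without Control replicate 1). The shares were 9.09% higher and 18.2% lower, against 21.5% and 18.1% of all genes. Pax2, which shapes the embryonic nephron, did not pass (0.21).

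HNF4 proteins are known to act at promoters of liver and kidney genes, so promoters were searched for the HNF4 motif CAAAGTCCA on both strands, in the RefSeq promoter table of GRCm38.p6, which gives 250 bases before and 50 after each start. Over 14473 promoters of 11340 tested genes, 0.463% held it (Wilson 95% interval 0.365 to 0.587%), against 0.808% of the 2722 promoters of genes called lower (0.534 to 1.22%) and 0.465% of the 3229 of genes called higher (0.282 to 0.765%). These intervals overlap, and the set of all promoters holds those of lower and higher genes. Promoters of genes not called held the motif at 0.352% (0.247 to 0.502%), an interval below that of lower genes. With only the bases before the start, lower genes stood at 0.551% (0.334 to 0.907%) and genes not called at 0.293% (0.199 to 0.433%). Read this way, the intervals of lower genes and genes not called overlap. Promoters of 1 gene share sequence, the intervals cover counting error alone, and a match is a description of letters and not a site. Stretches of promoters of 2 lower genes that hold the motif are shown with it in capitals, given 5′ to 3′ on the strand of the gene, and for Treh the motif reads on the opposite strand:
Slc3a1: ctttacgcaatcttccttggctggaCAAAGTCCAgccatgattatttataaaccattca
Treh: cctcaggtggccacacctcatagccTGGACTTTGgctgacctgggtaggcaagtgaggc
In the mouse build GRCm38.p6 they lie at chr17:85028283-85028341 (plus strand) and chr9:44673137-44673195 (plus strand). Slc3a1, a subunit of the brush border carrier of cystine and basic amino acids, was at 149 to 418 CPM (median 281) in Control and 36.3 to 148 CPM (median 82.6) in UIRI d7 (log2 fold change -1.56, SE 0.34, adjusted p = 0.000608). Treh, the brush border enzyme that splits trehalose, was at 53.9 to 79.8 CPM (median 64) in Control and 17.7 to 28.4 CPM (median 22.7) in UIRI d7 (log2 fold change -1.51, SE 0.17, adjusted p = 8.42e-08). The motif also stood in promoters of genes that rose, such as Trpv6 and Gpnmb, whose values are given with calcium control and macrophages.

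Of 17 genes of vitamin D, phosphate and calcium control 7 fell (41.2%) and 5 rose (29.4%), against 18.1% and 21.5% of all genes. Of 30 genes of the renin-angiotensin, erythropoietin and prostaglandin systems 8 fell (26.7%) and 5 rose (16.7%), or 6 and 4 without UIRI d7 replicate 4, so this list as a whole lay near the share over all genes. Kl, which encodes klotho, the co-receptor for the phosphate hormone FGF23, was at 154 to 366 CPM (median 232) in Control and 26.5 to 98.2 CPM (median 52.9) in UIRI d7 (log2 fold change -2.10, SE 0.37, adjusted p = 5.24e-05). S100g, the calcium shuttle of the distal tubule, was at 1490 to 2140 CPM (median 1900) in Control and 165 to 417 CPM (median 229) in UIRI d7 (log2 fold change -2.84, SE 0.19, adjusted p = 1.95e-11). Vdr, the vitamin D receptor, fell (-1.03). Against these losses, Stc2, a secreted glycoprotein of calcium and phosphate control, was at 1.87 to 3.79 CPM (median 2.57) in Control and 23.2 to 30.3 CPM (median 27.1) in UIRI d7 (log2 fold change 3.35, SE 0.23, adjusted p = 3.32e-11). Trpv6, a calcium entry channel, rose (2.88), while its relative Trpv5 did not pass (0.34). Ren1, which encodes renin, was at 40.6 to 88.5 CPM (median 65.7) in Control and 17.5 to 33.8 CPM (median 27.3) in UIRI d7 (log2 fold change -1.30, SE 0.23, adjusted p = 3.87e-05). Edn1, the vasoconstrictor endothelin, was at 2.32 to 6.46 CPM (median 4.65) in Control and 64.2 to 140 CPM (median 74.5) in UIRI d7 (log2 fold change 4.18, SE 0.33, adjusted p = 2.44e-10). For Edn1 the injured libraries stood far above the Control libraries.

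The distal nephron was lower as well, although the proximal tubule is regarded as the main target of ischemia. In the thick ascending limb 18 of 23 genes fell and 1 rose (median -1.32), in the distal convoluted and connecting tubule 20 of 23 fell (-1.54), in principal cells 11 of 21 fell and 2 rose (-0.83), and in intercalated cells 15 of 21 fell (-1.19). Slc12a1, the salt carrier of the thick ascending limb, was at 2340 to 4600 CPM (median 2590) in Control and 348 to 967 CPM (median 576) in UIRI d7 (log2 fold change -2.37, SE 0.28, adjusted p = 1.31e-07). Umod, the urinary protein uromodulin of the same cells, fell too (1610 to 2770 CPM (median 1980) in Control and 775 to 1060 CPM (median 889) in UIRI d7, log2 fold change -1.23, SE 0.23, adjusted p = 9.47e-05). Tmem207 and Ppp1r1a of this segment fell by -3.65 and -2.69, Cldn19 of its tight junctions did not pass (-0.23), and the member that rose was Cldn14, a claudin that limits calcium uptake (3.50, with overlapping groups).

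Calb1, the calcium buffer of the connecting tubule, was at 479 to 877 CPM (median 628) in Control and 31 to 59.7 CPM (median 47.8) in UIRI d7 (log2 fold change -3.76, SE 0.29, adjusted p = 1.87e-10). Slc12a3, the thiazide-sensitive salt carrier, was at 407 to 540 CPM (median 483) in Control and 64.6 to 116 CPM (median 84.7) in UIRI d7 (log2 fold change -2.47, SE 0.24, adjusted p = 5.13e-09). Aqp2, the water channel of principal cells, was at 289 to 1140 CPM (median 589) in Control and 118 to 332 CPM (median 148) in UIRI d7 (log2 fold change -1.85, SE 0.44, adjusted p = 0.00129). The highest injured library lay above the lowest Control library. Avpr2, the vasopressin receptor, fell (-1.56), and so did the sodium channel subunits Scnn1a and Scnn1b (-1.26 and -0.75). Slc4a1, the anion exchanger of acid-secreting intercalated cells, was at 19.1 to 43.2 CPM (median 30.8) in Control and 2.43 to 5.96 CPM (median 4.78) in UIRI d7 (log2 fold change -2.77, SE 0.25, adjusted p = 2.27e-09). Slc4a1 is also the band 3 protein of red blood cells, whose hemoglobin genes took 0.00498 to 0.123% of counts in Control and 0.0112 to 0.171% in UIRI d7 (exact permutation p = 0.431). Foxi1, the factor that defines intercalated cells, did not pass (-0.44).

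Of 17 podocyte genes 7 rose (41.2%, against 21.5% of all genes) and 2 fell (11.8%, against 18.1%; median 0.29), and 1 fell without any 1 of Control replicates 2, 4 and 6 and UIRI d7 replicates 4 and 5. Of 35 endothelial genes 10 fell (28.6%) and 1 rose (2.86%, or 2 genes without UIRI d7 replicate 4; median -0.12). Nphs1, nephrin of the slit diaphragm, and the podocyte factor Wt1 did not pass (-0.03 and 0.09) and no call was made for either. Kdr, the main receptor for vascular growth factor, was at 133 to 203 CPM (median 152) in Control and 68.6 to 114 CPM (median 99.2) in UIRI d7 (log2 fold change -0.78, SE 0.17, adjusted p = 0.000503). Its ligand Vegfa, which tubules and podocytes make, fell with overlapping groups (-1.02). Pecam1 and Plvap, which mark endothelium at large, had log2 fold changes of 0.30 and -0.12 and did not pass. The endothelial gene that rose, Pdpn, also marks lymph vessels, podocytes and fibroblasts (18.3 to 57.5 CPM (median 30.6) in Control and 140 to 278 CPM (median 173) in UIRI d7, log2 fold change 2.49, SE 0.27, adjusted p = 5.07e-08). Parietal epithelium and thin limb genes rose at 8 of 13 and fell at 1 (1.47), or at none without Control replicate 4, Control replicate 5 or UIRI d7 replicate 2. Among them Cldn1, a claudin of parietal cells, was at 12 to 28.3 CPM (median 17.5) in Control and 54.4 to 184 CPM (median 136) in UIRI d7 (log2 fold change 2.76, SE 0.27, adjusted p = 6.08e-09).

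**Figure D3:**
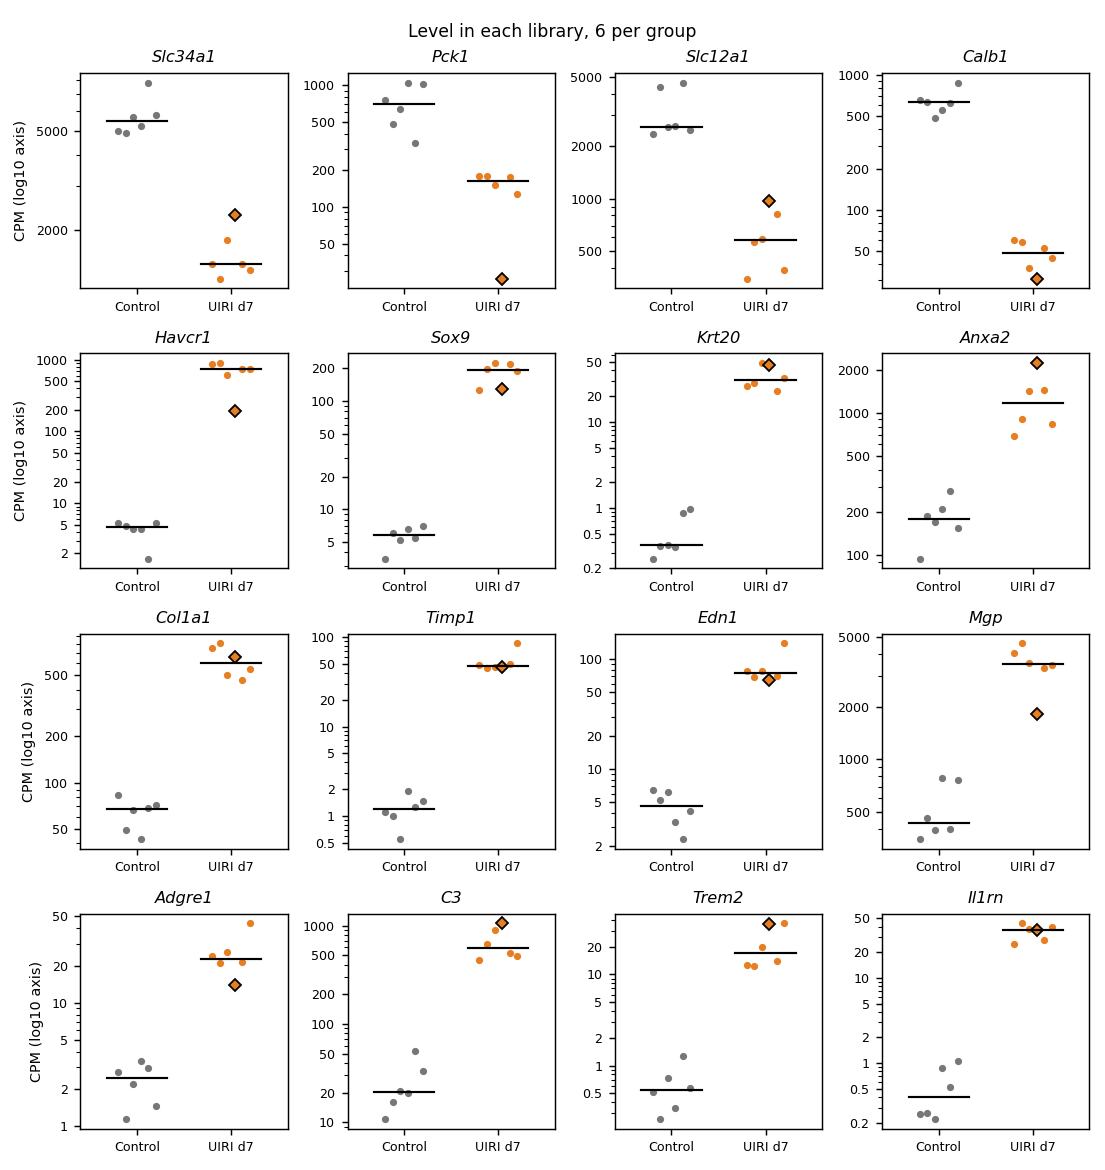
Level of 16 genes in each of the 12 libraries (log10 axis, CPM), Control in grey and UIRI d7 in orange, with a bar at each group's median and UIRI d7 replicate 4 as a diamond. The top row holds tubule genes that fell and the lower rows injury, matrix and leukocyte genes that rose, and in each panel the groups do not overlap.

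Genes that mark injured tubule cells were higher a week after ischemia. Of 27 annexin, S100 and secreted injury genes 24 rose and 1 fell (median 2.14), of 32 genes of failed repair and NF-kB signalling 30 rose and none fell (1 without UIRI d7 replicate 1; median 2.25), and of 21 intermediate filament genes 15 rose and none fell (1.65). Several of these genes entered the lists because they are known to rise in injured tubules, so the direction of these lists is not independent evidence. Havcr1, the phosphatidylserine receptor KIM-1, was at 1.69 to 5.35 CPM (median 4.62) in Control and 190 to 894 CPM (median 745) in UIRI d7 (log2 fold change 7.30, SE 0.46, adjusted p = 4.83e-12). Replicate 4 was the lowest injured library for Havcr1, and it too lay far above the Control libraries. Lcn2, an iron-carrier-binding protein released by injured tubules, was at 0.935 to 4.2 CPM (median 2.52) in Control and 47.5 to 218 CPM (median 108) in UIRI d7 (log2 fold change 5.51, SE 0.60, adjusted p = 4.02e-08). Spp1, the secreted matrix protein osteopontin, was at 227 to 440 CPM (median 307) in Control and 1720 to 4300 CPM (median 3200) in UIRI d7 (log2 fold change 3.26, SE 0.29, adjusted p = 1.59e-09). Clu, the chaperone clusterin, rose at a high level (162 to 252 CPM (median 210) in Control and 796 to 1510 CPM (median 1080) in UIRI d7, log2 fold change 2.47, SE 0.23, adjusted p = 3.21e-09). Mmp7, a secreted protease of damaged epithelium, was at 0.0369 to 0.346 CPM (median 0.176) in Control and 8.37 to 45.2 CPM (median 12.6) in UIRI d7 (log2 fold change 6.88, SE 0.86, adjusted p = 3.9e-07).

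Krt20, a keratin that healthy tubules lack, was at 0.255 to 0.969 CPM (median 0.366) in Control and 22.7 to 48 CPM (median 30.3) in UIRI d7 (log2 fold change 5.97, SE 0.45, adjusted p = 1.28e-10). Krt18 of simple epithelia, Krt19 and the mesenchymal filament Vim had log2 fold changes of 2.26, 2.37 and 2.06, and Krt7 did not pass (0.33, adjusted p = 0.0985). S100a6, a calcium sensor of dividing cells, was at 77.3 to 297 CPM (median 197) in Control and 1100 to 1970 CPM (median 1400) in UIRI d7 (log2 fold change 2.89, SE 0.30, adjusted p = 2.41e-08). Dcdc2a, a doublecortin protein of microtubules, was at 8.45 to 16.7 CPM (median 11) in Control and 75.5 to 152 CPM (median 123) in UIRI d7 (log2 fold change 3.28, SE 0.22, adjusted p = 1.03e-11). The NF-kB genes Relb and Nfkb1 both rose (2.46 and 1.37). The adhesion receptor Icam1, which binds leukocytes, had a log2 fold change of 2.18.

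Genes of cell contacts rose in part, with opposite signs among claudins. Of 27 claudin and tight junction genes 9 rose (33.3%, against 21.5% of all genes) and 5 fell (18.5%, against 18.1%, median 0.27). The share that fell thus lay near that over all genes. Of 33 integrin, laminin and adhesion genes 15 rose (45.5%) and 1 fell (3.03%, median 0.77). The number of adhesion genes that fell went to 0 without any 1 of Control replicates 1 and 3 and UIRI d7 replicates 2 and 5, and to 2 without Control replicate 5 or UIRI d7 replicate 1. Cldn4, a claudin of tight epithelia, was at 13.4 to 50.5 CPM (median 29) in Control and 95.5 to 238 CPM (median 158) in UIRI d7 (log2 fold change 2.53, SE 0.30, adjusted p = 1.91e-07). Cldn3 and Cldn7 rose too (1.79 and 1.35). Cldn10, the cation or anion pore of proximal tubule and thick limb, was at 194 to 295 CPM (median 282) in Control and 60.5 to 165 CPM (median 120) in UIRI d7 (log2 fold change -1.09, SE 0.24, adjusted p = 0.000534). Cldn2, the leaky claudin of the proximal tubule, and Ocln, a junction protein of all tubules, did not pass (-0.24 and -0.33). Cdh6, the cadherin of the embryonic proximal tubule, rose (3.61), and Cdh1 of mature epithelia did not pass (0.30).

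Developmental transcription factors rose. Of 39 factors of kidney development and regeneration 24 rose and 1 fell (median 1.43), and 2 fell without any 1 of Control replicates 1 and 4 and UIRI d7 replicate 2. Sox9, which marks tubule cells that regenerate, was at 3.48 to 7.02 CPM (median 5.74) in Control and 126 to 224 CPM (median 194) in UIRI d7 (log2 fold change 5.01, SE 0.29, adjusted p = 1.34e-12). Sox4 was at 72.7 to 103 CPM (median 88.5) in Control and 364 to 570 CPM (median 531) in UIRI d7 (log2 fold change 2.50, SE 0.15, adjusted p = 3.58e-12), and its relative Sox11, silent in most adult tissues, at 1.29 to 3.23 CPM (median 1.54) and 46.8 to 117 CPM (median 52.4) (log2 fold change 5.06, SE 0.34, adjusted p = 1.81e-11). All 3 Sox genes had every injured library above every Control library. Runx1, Myc and the chromatin protein Hmga2 had log2 fold changes of 3.74, 3.41 and 3.32. The member that fell was Lhx1, a factor of the early nephron that stays on in the distal tubule (-1.33).

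AP-1, the dimer of FOS and JUN proteins, is a known switch of injury and repair genes, so its motif TGANTCA was searched in the same promoters. It stood in 5.5% of all 14473 promoters (Wilson 95% interval 5.14 to 5.88%), in 7.15% of those of genes called higher (6.31 to 8.09%) and in 5.33% of those of genes called lower (4.54 to 6.24%). The motif GAGGAAGT of PU.1, a factor of myeloid cells, stood in 3.1% of all, 4.4% of higher and 2.5% of lower promoters. AAANNGAAA of interferon regulatory factors stood in 8.27%, 9.63% and 7.46%, and CCAAT of NF-Y in 37.0%, 34.9% and 38.0%. TTTGGCGC of E2F stood in 0.884%, 0.898% and 0.735%, and TCAAGGTCA of estrogen-related receptors in 0.276%, 0.31% and 0.257%. These are shares over genes of all functions and no factor was measured. The AP-1 letters are shown in capitals in stretches of 4 promoters of genes that rose, from an epithelial calcium-binding protein to a cytokine antagonist and 2 matrix proteases:
Anxa2: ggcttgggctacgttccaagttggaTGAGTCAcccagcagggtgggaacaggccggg
Il1rn: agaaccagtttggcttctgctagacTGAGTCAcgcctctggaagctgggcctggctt
Mmp7: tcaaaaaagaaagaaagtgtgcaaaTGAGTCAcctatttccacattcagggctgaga
Mmp12: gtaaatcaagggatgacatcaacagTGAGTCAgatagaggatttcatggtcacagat
They lie at chr9:69453563-69453619 (plus strand), chr2:24336694-24336750 (plus strand), chr9:7692002-7692058 (plus strand) and chr9:7347305-7347361 (plus strand) of GRCm38.p6, with the motif 95, 141, 63 and 44 bases before the start of the gene. Anxa2, a membrane-binding annexin, was at 94.4 to 281 CPM (median 180) in Control and 687 to 2240 CPM (median 1170) in UIRI d7 (log2 fold change 2.78, SE 0.32, adjusted p = 1.06e-07). Il1rn, the natural antagonist of interleukin 1, was at 0.221 to 1.05 CPM (median 0.395) in Control and 24.7 to 43.5 CPM (median 37) in UIRI d7 (log2 fold change 6.11, SE 0.31, adjusted p = 2.54e-13). Log2 fold changes were 6.88 for Mmp7 and 3.71 for Mmp12, an elastase of macrophages. Among lower genes the AP-1 letters also stood in the promoter of Cyp4b1, a fatty acid hydroxylase, which fell by a log2 value of -3.11.

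Of 37 genes of the TGF-beta, activin and BMP family 22 rose and 3 fell (median 0.95). Of 38 WNT and Notch genes 15 rose and none fell (1 without Control replicate 5 and 2 without UIRI d7 replicate 1, median 0.55). Of 36 genes of the PDGF, FGF, IGF and hepatocyte growth factor systems 12 rose (33.3%, against 21.5% of all genes) and 7 fell (19.4%, against 18.1%, median 0.23). Of 22 EGF receptor genes 5 rose (22.7%) and 2 fell (9.09%, median 0.28). Without UIRI d7 replicate 4, 7 EGF receptor genes rose and 3 fell. Tgfb1, the main fibrosis cytokine, was at 3.31 to 10.1 CPM (median 5.44) in Control and 16.7 to 41.3 CPM (median 31.3) in UIRI d7 (log2 fold change 2.23, SE 0.27, adjusted p = 1.91e-07). Tgfb2 had a log2 fold change of 2.02. Inhba, the subunit of activin A, was at 0.0807 to 1.16 CPM (median 0.801) in Control and 8.84 to 27.9 CPM (median 13.8) in UIRI d7 (log2 fold change 4.26, SE 0.39, adjusted p = 3.03e-09). Bmp7, which protects tubules and opposes TGF-beta, went the other way (54.8 to 92.1 CPM (median 72.6) in Control and 20.2 to 37.5 CPM (median 26.8) in UIRI d7, log2 fold change -1.39, SE 0.18, adjusted p = 4.92e-07). Smad7, a target of TGF-beta that dampens the pathway, did not pass (0.10).

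Gdf15, a stress hormone that curbs appetite, was at 53 to 169 CPM (median 87.4) in Control and 197 to 1190 CPM (median 539) in UIRI d7 (log2 fold change 2.69, SE 0.39, adjusted p = 2.96e-06). Wnt4, which drives nephron formation in the embryo, was at 1.19 to 12.1 CPM (median 3.52) in Control and 21.3 to 57 CPM (median 37) in UIRI d7 (log2 fold change 2.83, SE 0.42, adjusted p = 4.28e-06). Wnt7b and Wnt10a rose too (1.59 and 3.20). Fgf1, made by mature tubules, fell (-1.64), while Fgf2, a mitogen of fibroblasts, rose (2.47). Met, the receptor for hepatocyte growth factor, did not pass (-0.16).

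Genes of division were still above Control. Of 38 cyclin, replication licensing and ploidy genes 31 rose and none fell (1 without UIRI d7 replicate 5; median 1.51). Foxm1, the factor that drives mitotic genes, was at 1.56 to 3.38 CPM (median 2.69) in Control and 9.41 to 14.2 CPM (median 11.2) in UIRI d7 (log2 fold change 2.16, SE 0.20, adjusted p = 3.01e-09). Mki67, a protein of cycling nuclei, was at 2.26 to 3.57 CPM (median 2.94) in Control and 3.32 to 21.2 CPM (median 11.8) in UIRI d7 (log2 fold change 2.01, SE 0.35, adjusted p = 3.81e-05). At least 1 injured library lay within the Control range for Mki67. E2f7 and E2f8, repressors tied to polyploid cells, had log2 fold changes of 2.41 and 2.55. Ccnd1, cyclin D1, was at 415 to 727 CPM (median 596) in Control and 289 to 754 CPM (median 372) in UIRI d7 and did not pass (-0.46, adjusted p = 0.132), but it was lower without UIRI d7 replicate 5 (adjusted p = 0.0145). The cyclins Ccnb1 and Ccna2 rose (2.63 and 2.60). The CDK inhibitor Cdkn1a, which encodes p21, was at 7.05 to 10.8 CPM (median 8.77) in Control and 42.5 to 109 CPM (median 54.1) in UIRI d7 (log2 fold change 2.82, SE 0.24, adjusted p = 1.14e-09). Its relative Cdkn1b did not pass (-0.07). The p53 targets Mdm2 (0.01, adjusted p = 0.961) and Ccng1 (lower, -0.74) did not share the direction of Cdkn1a. In the list of CDK inhibitors, p53 targets and senescence genes 15 of 31 rose (48.4%, against 21.5% of all genes) and 2 fell (6.45%, against 18.1%).

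Of 33 NRF2 target and antioxidant genes 15 fell and 3 rose (median -0.59), of 19 hypoxia targets 9 fell and 3 rose (-0.41), and of 32 genes of the integrated stress and unfolded protein responses 6 rose (18.8%, against 21.5% of all genes) and 4 fell (12.5%, against 18.1%; 0.38). Without UIRI d7 replicate 4, 9 of the last list rose. Nqo1, the quinone reductase that serves as a readout of NRF2, was at 26.9 to 58.6 CPM (median 48.1) in Control and 6.43 to 19 CPM (median 12.7) in UIRI d7 (log2 fold change -1.74, SE 0.25, adjusted p = 3.73e-06). Gclc and Gclm, which make glutathione, fell (-1.79 and -1.24), and Hmox1, which degrades heme, did not pass (0.26). Atf3, an early stress factor, was at 0.242 to 1.56 CPM (median 1.07) in Control and 7.26 to 18.8 CPM (median 9.4) in UIRI d7 (log2 fold change 3.40, SE 0.33, adjusted p = 7.84e-09). Atf4 and Ddit3 of the integrated stress response did not pass (0.06 and 0.41), and the call of the chaperone Hspa5 was lost without replicate 4 (adjusted p = 0.0217 with it and 0.0745 without it). The hypoxia targets Car9, Bnip3 and Ak4 were lower (-2.31, -1.11 and -2.56).

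Iron genes and cell death genes moved at single members. In the iron list 9 of 25 rose (36.0%, against 21.5% of all genes) and 7 fell (28.0%, against 18.1%). Trf, the plasma iron carrier transferrin, was at 12.8 to 37.1 CPM (median 25.4) in Control and 110 to 211 CPM (median 147) in UIRI d7 (log2 fold change 2.54, SE 0.27, adjusted p = 3.14e-08), and its receptor Tfrc fell (-1.25). The ligand and receptor had opposite signs. Of 30 cell death genes 13 rose and 2 fell (median 0.52), and 1 fell without any 1 of Control replicates 3, 4 and 6 and UIRI d7 replicates 2, 3 and 4. Ripk3, the kinase of necroptosis, was at 0.085 to 0.778 CPM (median 0.226) in Control and 2.27 to 6.22 CPM (median 3.45) in UIRI d7 (log2 fold change 3.40, SE 0.39, adjusted p = 8.9e-08). Its substrate Mlkl, the pore protein Gsdmd of pyroptosis and the inflammasome sensor Nlrp3 rose (1.77, 1.72 and 3.60). Of 38 lysosome and autophagy genes 12 rose (31.6%, against 21.5% of all genes) and 5 fell (13.2%, against 18.1%), or 9 and 7 without UIRI d7 replicate 4. The protease Ctss of antigen-presenting cells was at 30 to 49.6 CPM (median 35) in Control and 218 to 413 CPM (median 312) in UIRI d7 (log2 fold change 3.04, SE 0.25, adjusted p = 4.47e-10), whereas the general lysosome genes Lamp1 and Ctsb did not pass (-0.20 and 0.29).

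Matrix genes rose at most members. Of 26 collagen chains 19 rose and 4 fell (median 2.13), of 43 crosslinking enzymes, proteases and inhibitors 35 rose and 1 fell (1.94), and of 35 glycoproteins and proteoglycans 24 rose and 2 fell (1.82). Col1a1, the main chain of fibrillar collagen, was at 42.9 to 83 CPM (median 67.3) in Control and 464 to 810 CPM (median 605) in UIRI d7 (log2 fold change 3.30, SE 0.20, adjusted p = 3.26e-12). Col5a1, which starts collagen fibrils, was at 7.09 to 10.1 CPM (median 8.45) in Control and 53.3 to 72.2 CPM (median 59.2) in UIRI d7 (log2 fold change 2.81, SE 0.16, adjusted p = 8.1e-13). For both chains the groups were far apart and each was tight. Basement membrane chains split: Col4a1, present in all basement membranes, rose (160 to 240 CPM (median 197) in Control and 524 to 966 CPM (median 629) in UIRI d7, log2 fold change 1.75, SE 0.17, adjusted p = 9.51e-09), while Col4a3 and Col4a4, the chains of the mature glomerular membrane, fell (-0.94 and -0.89). Col4a4 was at 270 to 345 CPM (median 298) in Control and 142 to 179 CPM (median 174) in UIRI d7.

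Lox, which crosslinks collagen, was at 11.2 to 18.2 CPM (median 12.4) in Control and 81.9 to 145 CPM (median 109) in UIRI d7 (log2 fold change 3.05, SE 0.27, adjusted p = 1.77e-09). Mmp2 and Mmp14, a collagenase and the membrane protease that activates it, rose (3.22 and 2.78). Of the inhibitors of these proteases, Timp1 was at 0.553 to 1.9 CPM (median 1.18) in Control and 45.9 to 85.8 CPM (median 48) in UIRI d7 (log2 fold change 5.52, SE 0.40, adjusted p = 7.3e-11), Timp2 rose (1.83), and Timp3 was the only member of its list called lower. Timp3, the inhibitor that binds to matrix, was at 2840 to 4080 CPM (median 3280) in Control and 1210 to 1840 CPM (median 1330) in UIRI d7 (log2 fold change -1.23, SE 0.15, adjusted p = 3.57e-07). Thus 3 inhibitors of 1 family had unlike signs. Tnc, a matrix protein of wounds, was at 8.41 to 25.6 CPM (median 14.1) in Control and 74 to 243 CPM (median 141) in UIRI d7 (log2 fold change 3.28, SE 0.32, adjusted p = 8.34e-09). Fbn2, the fibrillin of the embryo, had a log2 fold change of 5.39, Fmod, a proteoglycan that spaces collagen fibrils, fell (-1.42), and Dcn, the proteoglycan of resting fibroblasts, did not pass (0.32, adjusted p = 0.254).

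Of 31 genes of fibroblasts and mural cells 18 rose and 1 fell (2 without UIRI d7 replicate 1; median 0.93). Acta2, the smooth muscle actin of myofibroblasts and vessel walls, was at 40.8 to 134 CPM (median 81) in Control and 171 to 521 CPM (median 247) in UIRI d7 (log2 fold change 1.82, SE 0.29, adjusted p = 1.07e-05). Fap, a surface protease of activated fibroblasts, and Thy1 rose further (4.64 and 3.39). The smooth muscle genes Myh11 and Cnn1 and the pericyte gene Rgs5 did not pass (-0.20, 0.01 and 0.12), and no rise of the muscle programme was called beside that of Acta2. Ren1, which marks the renin cells of the vessel wall, was the list member that fell.

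Myeloid cell genes rose at most members. Of 32 monocyte and macrophage genes 30 rose and none fell (median 2.85), and of 29 lipid-handling and scavenging genes 22 rose and 2 fell (2.44). Of 23 listed neutrophil and mast cell genes 12 passed the filter on low counts, and 11 of these rose (4.02). Genes near 0 in Control could pass that filter only through injured groups and could hardly fall. The direction of this last list is therefore not evidence of its own. Adgre1, the macrophage marker F4/80, was at 1.14 to 3.37 CPM (median 2.45) in Control and 13.9 to 43.9 CPM (median 22.6) in UIRI d7 (log2 fold change 3.43, SE 0.29, adjusted p = 9.54e-10). Cx3cr1, the fractalkine receptor of resident macrophages, was at 20.5 to 73 CPM (median 31.8) in Control and 171 to 623 CPM (median 279) in UIRI d7 (log2 fold change 3.14, SE 0.37, adjusted p = 1.58e-07). Clec4n, the fungal lectin receptor dectin-2, had a log2 fold change of 5.77, and Csf1r, the receptor that macrophages need to survive, 1.37 with overlapping groups. The macrophage growth factors were higher too: Il34 was at 17.6 to 80.7 CPM (median 46.5) in Control and 99.4 to 574 CPM (median 249) in UIRI d7 (log2 fold change 2.58, SE 0.44, adjusted p = 3.44e-05), and Csf1 had a log2 fold change of 2.25.

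Trem2, a lipid receptor of tissue macrophages, was at 0.259 to 1.26 CPM (median 0.537) in Control and 12.3 to 36.2 CPM (median 17) in UIRI d7 (log2 fold change 5.08, SE 0.44, adjusted p = 9.99e-10). Gpnmb and Mrc1, a lysosomal glycoprotein and the mannose receptor, rose (4.90 and 3.67). Apoe, the lipid carrier that macrophages and tubules both make, was at 117 to 293 CPM (median 164) in Control and 844 to 2230 CPM (median 1290) in UIRI d7 (log2 fold change 2.98, SE 0.32, adjusted p = 3.39e-08). The members of this list that fell were Cd36, a fatty acid receptor, and Lpl, a lipase. Lpl was at 1200 to 2240 CPM (median 1810) in Control and 153 to 280 CPM (median 248) in UIRI d7 (log2 fold change -2.92, SE 0.19, adjusted p = 5.6e-12), and Cd36 had a log2 fold change of -2.30. Both are also made by other kidney cells, and their source was not tested. S100a8, a calcium-binding protein of neutrophils, was at 1.19 to 7.35 CPM (median 2.43) in Control and 11.6 to 114 CPM (median 47.7) in UIRI d7 (log2 fold change 4.07, SE 0.83, adjusted p = 0.000254), but Ly6g, which defines mouse neutrophils, had at most 7 counts in any library.

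Antigen presentation and lymphocyte genes rose more unevenly. Of 29 genes of antigen presentation and dendritic cells 21 rose and none fell (median 1.41), and of 24 T, NK and innate lymphoid genes 19 rose and 1 fell (1.79). These 24 were the genes of 45 listed that passed the filter on low counts. Here too, genes near 0 in Control could pass only through injured groups. The direction of the T, NK and innate lymphoid list is therefore not evidence of its own. No T, NK or innate lymphoid gene fell when Control replicate 1, Control replicate 2, UIRI d7 replicate 4 or UIRI d7 replicate 5 was left out. Cd74, the invariant chain of class II, was at 63.9 to 160 CPM (median 112) in Control and 112 to 778 CPM (median 382) in UIRI d7 (log2 fold change 1.80, SE 0.42, adjusted p = 0.00112). H2-Eb1, a class II chain, was at 84.4 to 167 CPM (median 116) in Control and 191 to 581 CPM (median 440) in UIRI d7 (log2 fold change 1.71, SE 0.34, adjusted p = 0.000178). Within UIRI d7, replicates 5 and 6 were again the lowest for H2-Eb1, at 191 and 245 CPM. Ccl5, a chemokine of T and NK cells, Cd4 and the T cell kinase Lck had log2 fold changes of 2.72, 2.01 and 2.13, and Cd8a of cytotoxic T cells did not pass (0.27). Of 25 listed B and plasma cell genes 14 were tested, and 4 rose (28.6%, against 21.5% of all genes). Cd79b and Jchain were among those that did not pass (0.93 and -0.05).

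Of 28 chemokine ligands 22 rose and 2 fell (median 2.58), of 37 chemokine and cytokine receptors 31 rose and none fell (2.04), and of 20 cytokines 16 rose and 2 fell (2.01). The lists held 35, 43 and 36 genes before the filter on low counts. Members near 0 in Control could pass it only through injured groups, so the directions of these lists are not evidence of their own. Ccl2, which draws monocytes, was at 0.415 to 1.9 CPM (median 1.1) in Control and 3.9 to 116 CPM (median 51.1) in UIRI d7 (log2 fold change 5.64, SE 0.59, adjusted p = 2.46e-08). Its lowest injured library was replicate 4, and the log2 fold change without it was 5.90. Cxcl1, which draws neutrophils, was at 0.435 to 6.92 CPM (median 3.16) in Control and 5.74 to 132 CPM (median 92.5) in UIRI d7 (log2 fold change 4.78, SE 0.59, adjusted p = 3.54e-07), with replicate 4 at 5.74 CPM inside the Control range. Cxcl2 of the same family gave 4 counts over the 6 Control libraries and 2435 over the 6 injured ones. Cxcl12, which holds cells in place, was at 82.9 to 171 CPM (median 143) in Control and 58.4 to 93 CPM (median 63.7) in UIRI d7 and fell with overlapping groups (log2 fold change -1.0, SE 0.19, adjusted p = 0.000106). Tnf, Il11 and Lif rose from levels under 1 CPM in the median Control library (4.02, 4.05 and 5.81), while Il18, a cytokine of tubule cells, did not pass (0.33) and Il15 fell (-0.95).

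Of 29 complement genes 21 rose and 3 fell (median 1.48). C3, the hub of the cascade, was at 10.8 to 53.1 CPM (median 20.4) in Control and 447 to 1050 CPM (median 590) in UIRI d7 (log2 fold change 4.73, SE 0.46, adjusted p = 6.95e-09). C1qa, the starter of the classical route and a macrophage product, was at 33.1 to 159 CPM (median 67.8) in Control and 392 to 1980 CPM (median 678) in UIRI d7 (log2 fold change 3.59, SE 0.42, adjusted p = 1.26e-07). Inhibitors on cell surfaces fell: Cd55 was at 3.62 to 11.7 CPM (median 8.87) in Control and 0.818 to 3.23 CPM (median 1.95) in UIRI d7 (log2 fold change -2.05, SE 0.36, adjusted p = 4.72e-05), and Cd59a had a log2 fold change of -1.04. Of 44 genes of the interferon response 22 rose (median 0.75), which is 50% against 21.5% of all genes, and type I targets differed: Ifit2 and Ifit3 rose (0.99 and 0.99), while Ifit1, Isg15 and Usp18 did not pass (-0.34, 0.18 and 0.11). The count depended in part on UIRI d7 replicate 1: without that library 14 of the 44 members rose and 2 fell, and Ifit1 was called lower (adjusted p = 0.0288). Irf1, a factor induced by interferon gamma, rose with overlapping groups (1.39).

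**Figure D4:**
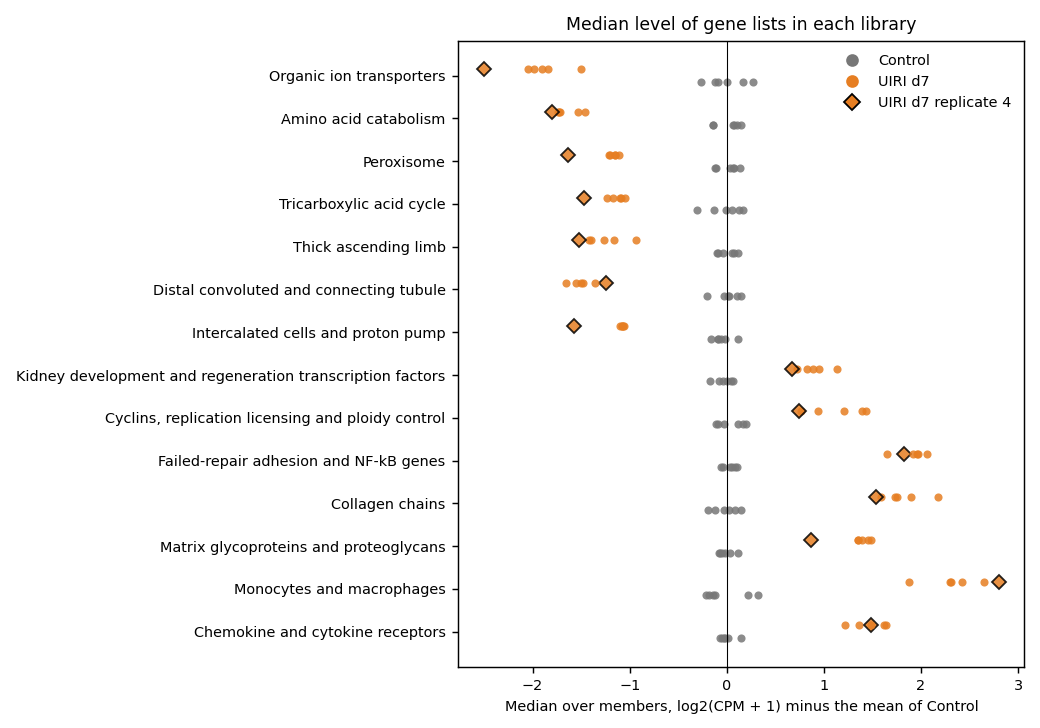
Median level of the tested members of 14 gene lists in each of the 12 libraries, as log2 of CPM plus 1 minus the mean of the 6 Control libraries, with Control in grey, UIRI d7 in orange and UIRI d7 replicate 4 as a diamond. In each list shown the injured libraries lie on 1 side of the Control libraries.

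Of 18 clock genes 9 fell (50%, against 18.1% of all genes) and 5 rose (27.8%, against 21.5%; median -0.63). Dbp, an output factor of the clock, was at 65.4 to 91 CPM (median 77.5) in Control and 6.54 to 46.1 CPM (median 13.4) in UIRI d7 (log2 fold change -2.03, SE 0.35, adjusted p = 3.82e-05), and Hlf, its relative, fell too (-2.10). Nfil3, which represses the same sites, went up (2.06), as did the core activator Arntl with overlapping groups (1.52). Per1 and Per2 did not pass (-0.04 and -0.95), and no source used here gives the hours of tissue collection, so hour and injury cannot be told apart for these genes. Of 23 retinoid and steroid genes 8 rose (34.8%) and 7 fell (30.4%). Stra6, the retinol uptake receptor, was at 0.51 to 1.94 CPM (median 1.52) in Control and 22.9 to 52.3 CPM (median 38.3) in UIRI d7 (log2 fold change 4.82, SE 0.35, adjusted p = 6.85e-11). Aldh1a2, which makes retinoic acid, was at 1.21 to 2.58 CPM (median 1.87) in Control and 14 to 50.9 CPM (median 33.3) in UIRI d7 (log2 fold change 4.12, SE 0.37, adjusted p = 2.14e-09). Ttr, a carrier of retinol-binding protein, fell (-2.72). Uptake and synthesis genes of this pathway rose, and this carrier did not.

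Of 34 genes of lipid droplets 13 fell and 4 rose (median -0.53). Dgat2, which makes triglyceride, was at 132 to 192 CPM (median 146) in Control and 37.7 to 58.9 CPM (median 54.8) in UIRI d7 (log2 fold change -1.58, SE 0.15, adjusted p = 4.02e-09), and Hilpda, which blocks lipid breakdown, rose (1.5). Of 9 urothelial genes 2 rose (22.2%, against 21.5% of all genes) and 2 fell (22.2%, against 18.1%). The genes that rose were Sprr2f and Sprr1a, while the uroplakins Upk1a and Upk2, which define urothelium, fell with overlapping groups (-1.39 and -2.34) and Upk3a did not pass (-0.43). The call of Upk1a (adjusted p = 0.0487) was lost without any 1 of 8 libraries (adjusted p from 0.0589 to 0.181), and that of Upk2 without Control replicate 5 (adjusted p = 0.0586). Fat cell genes passed at 0 of 8 members in the edgeR test, and red blood cell genes fell at 1 of 6, which was Slc4a1.

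To place day 7 against the other injured groups of this cohort, UIRI d7 was compared with UIRI d3, killed on day 3 before any second operation, and with UIRI+Nx d7, whose uninjured kidney was removed on day 3. These comparisons share the UIRI d7 libraries, so they are given side by side and not set against each other. Against UIRI d3, 409 of 15701 genes changed (2.6%), 195 higher (1.24%) and 214 lower (1.36%) in UIRI d7. DESeq2 gave 711 changed genes, and edgeR 263 without UIRI d7 replicate 2 and 247 without UIRI d7 replicate 3. Against UIRI+Nx d7 1040 changed (6.62%), 543 higher (3.46%) and 497 lower (3.17%) in UIRI d7, and 586 when these 2 groups were fitted alone. Of 38 cyclin, replication licensing and ploidy genes 21 were lower on day 7 than on day 3 (55.3%), or 12 without UIRI d7 replicate 2 and 11 without UIRI d7 replicate 3. Foxm1 was at 23.2 to 38.7 CPM (median 30.4) on day 3 and lower on day 7 (-1.41, adjusted p = 8.31e-05), and Ccnb1, Plk1 and Birc5 of mitosis were lower by log2 values of -1.90, -2.0 and -1.96. Krt20 and S100a6 were lower on day 7 as well (-1.29 and -1.46), and so was Hmox1 (-1.37, adjusted p = 0.000787). Apart from Hmox1, these genes were still above Control on day 7.

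Of 32 monocyte and macrophage genes 12 were higher on day 7 than on day 3 (37.5%), of 24 T, NK and innate lymphoid genes 7 (29.2%), and of 29 genes of antigen presentation and dendritic cells 7 (24.1%), against 1.24% of all genes. Without UIRI d7 replicate 3 these counts were 7, 3 and 4, and without UIRI d7 replicate 2 9, 3 and 4. In the T, NK and innate lymphoid list, 4 were higher without UIRI d7 replicate 1. Genes of that list near 0 in other groups could pass the filter on low counts only through UIRI d7. Its share is therefore not evidence of its own. Among matrix genes, 4 of 35 glycoproteins and proteoglycans and 1 of 26 collagen chains (5 with DESeq2) were higher on day 7. Of 43 crosslinking enzymes and proteases 3 were higher (6.98%) and 2 lower (4.65%, against 1.36% of all genes). Apoe was at 199 to 416 CPM (median 324) on day 3 (2.13, adjusted p = 0.000213), Lyz2, lysozyme of myeloid cells, at 123 to 327 CPM (median 182) (1.57, adjusted p = 0.000304), and H2-Eb1 at 32.3 to 84.2 CPM (median 74.3) (2.55, adjusted p = 8.37e-05). For H2-Eb1 every day 3 library was below the lowest Control library, and every day 7 library above the highest. In the matrix and fibroblast lists, Col12a1, Mmp2 and Fap were higher on day 7 by log2 values of 1.79, 1.39 and 2.42. Stra6 and Trf rose between the days too (2.52 and 1.68), whereas Timp3 went on falling (-0.54, adjusted p = 0.0497). No test of the difference between days passed for Slc34a1, Lrp2, Havcr1 or Sox9 (-0.63, -0.46, -0.57 and 0.06, adjusted p = 0.144, 0.635, 0.52 and 0.956).

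With the other kidney left in place, Havcr1, Vcam1 and C3 were higher than after its removal by log2 values of 1.59, 1.68 and 1.49 (adjusted p = 0.00668, 2.92e-05 and 0.0234). Of 32 failed-repair and NF-kB genes 13 were higher with the other kidney in place (40.6%), against 3.46% of all genes. Vcam1, the leukocyte adhesion receptor of failed-repair cells, was at 122 to 206 CPM (median 159) in UIRI+Nx d7 and 341 to 712 CPM (median 506) in UIRI d7. With the other kidney in place, 8 of 19 genes of gluconeogenesis and fructose use were lower (42.1%, or 4 with the 2 groups fitted alone), 11 of 36 of amino acid breakdown (30.6%, or 7 genes without UIRI d7 replicate 2), 15 of 53 conjugation enzymes (28.3%, with 4 higher) and 7 of 23 genes of the distal convoluted and connecting tubule (30.4%), against 3.17% of all genes. Pck1 was at 219 to 942 CPM (median 613) in UIRI+Nx d7 (-2.12, adjusted p = 0.0045), G6pc at 38.3 to 267 CPM (median 131) (-2.34, adjusted p = 2.46e-05) and Calb1 of the connecting tubule at 243 to 538 CPM (median 351) (-2.94, adjusted p = 6.37e-07). Nqo1 had the same direction (-2.48, adjusted p = 1.57e-06). Kap and Inmt were the other way round, being higher in UIRI d7 than in UIRI+Nx d7 by 2.43 and 2.69 (adjusted p = 0.00048 and 0.00168), although UIRI d7 replicates 5 and 6 lay within or near the UIRI+Nx d7 range for both (610 to 1390 CPM for Kap and 3.91 to 12.4 CPM for Inmt). Of 24 T, NK and innate lymphoid genes 19 were higher in UIRI d7 (79.2%), of 44 interferon genes 14 (31.8%) and of 29 genes of antigen presentation and dendritic cells 9 (31%). The limit given above for the T, NK and innate lymphoid list, that genes could pass the filter only through UIRI d7, holds here too. H2-Eb1 and Ccl5 were higher in UIRI d7 by 2.39 and 2.66 (adjusted p = 8.18e-05 and 2.15e-05), while the scavenger receptor Cd163 and Arg1 were lower (-2.64 and -2.76).

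**Figure D5:**
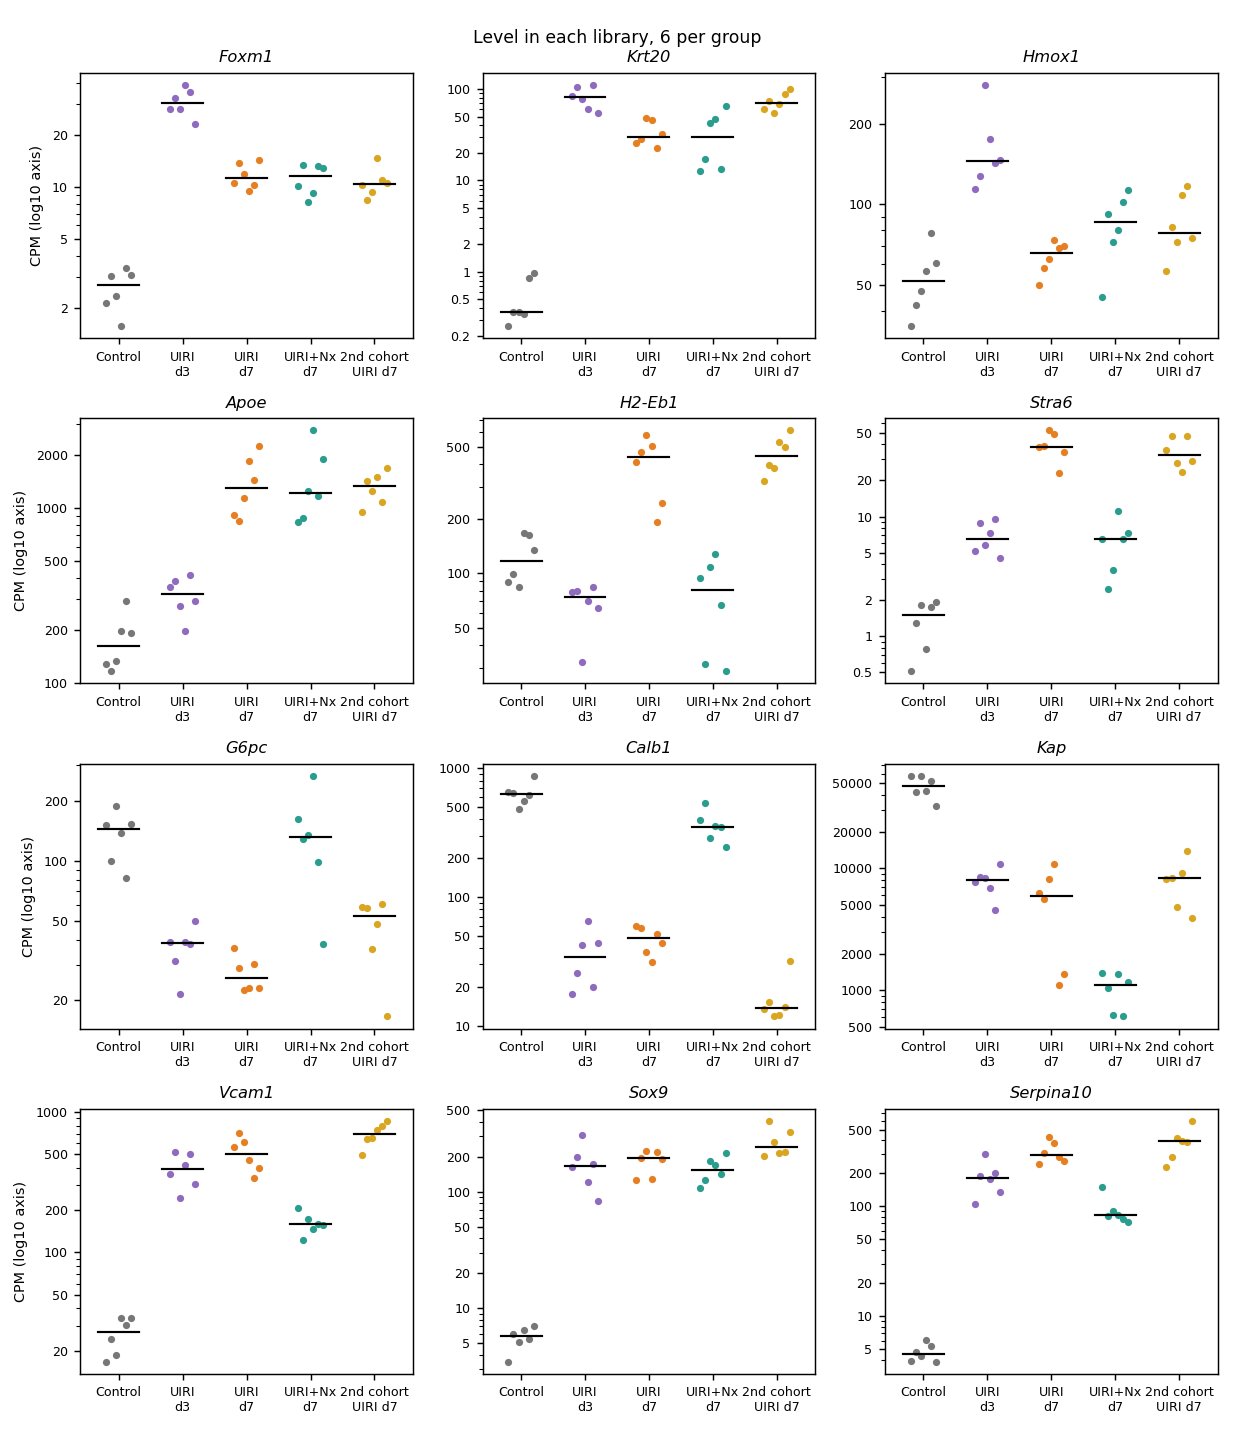
Level of 12 genes in each library of Control, UIRI d3, UIRI d7 and UIRI+Nx d7 of the first cohort and of UIRI d7 of the second cohort (log10 axis, CPM), with a bar at each group's median. The second cohort was scaled apart from the first. Foxm1 is highest in UIRI d3, Apoe and H2-Eb1 are higher in UIRI d7 than in UIRI d3, and G6pc and Calb1 are lower in UIRI d7 than in UIRI+Nx d7.

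A second cohort of the series holds 6 injured day 7 libraries with the other kidney in place and no Control libraries. The titles of these libraries begin with WT, and the labels say no more of their genotype. Its counts were made on another build and no source gives a genotype for the first cohort, so cohort and injury cannot be told apart there and no test was made. The levels of the second cohort were scaled by TMM factors of that cohort alone. Levels of the cohorts set side by side here are therefore on separate scales. Of 3334 genes called higher in the first cohort and measured in the second, 2000 (60.0%) had all 6 of those libraries above every Control library of the first cohort. Of 2753 called lower, 1729 (62.8%) had all 6 below. Among 9176 genes that were not called, 118 (1.29%) lay wholly above and 211 (2.3%) wholly below. Sox9 was at 202 to 408 CPM (median 244) in the second cohort, Egf, the growth factor of the thick limb and distal tubule, at 15.9 to 23.2 CPM (median 18.6), and Serpina10 at 229 to 601 CPM (median 392). In the first cohort the UIRI d7 ranges were 126 to 224 CPM for Sox9, 12.5 to 24.3 CPM for Egf and 242 to 423 CPM for Serpina10.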

How the data were processed

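Per the labels' protocols, libraries were made with a QuantSeq 3′ kit, and the authors deposited 1 table of raw counts per gene, not normalized, for all 41 columns, 1 of which holds unassigned reads and was not used. Per the submitters' processing notes the tools were Trimmomatic, STAR 2.7.11b and HTSeq 0.6.1, with the builds GRCm38 (mm10) and GRCm39. The strand setting of the counting is not given in the sources used here, so overlapping and antisense genes, and copies that share reads, are uncertain.

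The 24 first-cohort libraries (4 groups of 6) were fitted together with edgeR 4.0.16 in R 4.3.3, in a quasi-likelihood test with TMM scaling and filterByExpr, and genes were called at a Benjamini-Hochberg adjusted p under 0.05 over 15701 genes of 48795. CPM are this scaling's counts per 1000000, and those of the second cohort come from TMM factors of that cohort alone. Sharing 1 fit lets all 4 groups set the spread. The labels do not say that replicates were separate animals beyond their numbers, so p-values measure the spread between these samples. Replicate numbers did not pair the libraries. No pair of libraries was a duplicate. In counts simulated on 15502 genes of this comparison, 43 of 98 genes changed by 1 on the log2 scale and 91 of 99 changed by 2 were recovered, with 5 false calls. Only these genes were changed, up and down alike. The simulation cannot show how scaling and false calls behave where 6218 genes change. Positions and promoters came from RefSeq's GRCm38.p6 table, which gives a promoter for 11340 tested genes.

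The members and the gene lists were chosen with earlier results of these data known. Genes were named by a rule: defining members of each of 68 lists, up to 3 members per direction with the smallest adjusted p and any member against its list's direction, up to 15 genes per direction by fold change and by difference in CPM with a group mean of 5 CPM, and up to 10 with the largest and the smallest spread in UIRI d7 at 20 CPM. The rule picks 674 genes, of which the text names a subset, and some are not reported here. Abcg2, Cdh1, Cdkn1b, Cnn1, Foxi1, Hmga2, Klf15, Myc, Myh11, Nlrp3, Rgs5 and Tmem207, and the markers of neighbouring tissues and neutrophils that were at or near 0, fell outside it and were chosen after their values were seen. Alternatives were other scaling (RLE), no filter, DESeq2 1.42.0, 2 groups alone, library blocks, a replicate block, no mitochondrial genes, each library left out, and promoters read only before the start. Counts of lists against UIRI d3 and UIRI+Nx d7 were added after the data were seen.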

Additional observations from a re-analysis of the deposited data

Results flagged for a closer look

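Each value here belongs to a library that lay far from the other 5 of its group, by the ratio of its gap to the range of the group. Far is thus relative to that range. The gap in CPM can be small in a tight group, as for Suclg1, or rest on few counts, as for Cxcl2 in Control. Chance gives such a library in about 1 in 20 groups, and 53 of 572 groups (9.27%) had one. Levels are in CPM, and no explanation was tested.

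UIRI d7 replicate 4 gave 22 of them. Its level was far above the other 5 for Abcb1b (17.2), Actb (12900), Ass1 (156), Atf3 (18.8), Atf4 (682), Col4a1 (966), Col4a3 (54.6), Fcrls (152), Gpnmb (128), Hk2 (52.8), Il11 (20.1), Inhba (27.9), Krt18 (179), Mme (237), Myh11 (31.7), Ogdh (135), Oxct1 (1120), Pax2 (132), Sox11 (117) and Timp2 (1720). It was far below them for Pck1 (25.8) and Suclg1 (238). These genes span metabolism, matrix, cytoskeleton and macrophages. UIRI d7 replicate 1 was far above for Cxcl12 (93.0), Ifit1 (26.9) and Ifit2 (17.2). UIRI d7 replicate 5 was far above for Acta2 (521), Adipoq (10.4) and Ccnd1 (754) and far below for Thy1 (12.2). UIRI d7 replicate 6 was far above for Ctsb (666), Edn1 (140.0), Lyz2 (969) and Timp1 (85.8).

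In Control, replicate 5 was far above the other 5 for Abcb1b (6.71), Actb (4070), Asl (113), Cnn1 (21.0), Dgat2 (192), Lck (5.5), Slc34a1 (7780) and the share of hemoglobin transcripts (0.123% of counts), and far below for Havcr1 (1.69). Control replicate 6 was far above for Irf1 (103), Isg15 (67.1), Lox (18.2) and Mlkl (2.34). Control replicate 3 was far above for Adipoq (8.7) and Hk2 (8.7), replicate 4 for Foxi1 (53.9) and Pecam1 (134), and replicate 1 for Cxcl2 (0.255). Control replicate 2 was far above for Mme (234) and far below for Lyz2 (15.5).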

How the results depend on the processing

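Against Control, leaving out each library gave 5709 to 6277 changed genes, 3104 to 3354 higher and 2563 to 2923 lower, and no gene of the 6218 called the opposite way in any alternative run. The block with 3 libraries of each group gave 3233 changed genes, 1907 higher and 1326 lower, and called 3109 of the 6218 in the same direction. The replicate block gave 4957 changed genes, but replicate numbers do not pair the libraries (correlations of same-numbered UIRI d7 and Control libraries from -0.332 to 0.447, and only number 1 had its best match in its own number). Against UIRI d3 the replicate block gave 164 changed genes, DESeq2 711 and leaving out single libraries 247 to 405. Against UIRI+Nx d7 the replicate block gave 331, the fit of 2 groups alone 586 and leaving out single libraries 695 to 1074. No named gene changed direction past the test, and 281 named genes were tested, of which 26 lost their call in the block of 3 against 3 and 5 with the replicate block. Of 136 counts of list members that rose or fell, 47 moved by over 1.5 times in the block of 3 against 3, 12 with the replicate block, 10 with library blocks as a term and 9 with 2 groups alone. Leaving out single libraries moved 1 to 7 of them, and urothelial genes that fell went from 2 to 0 or 1. Against UIRI d3 the replicate block left 5 monocyte and macrophage, 4 antigen presentation and 1 T and NK genes higher.

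With promoters read only before the start site, AP-1 stood in 4.82% of all and 6.19% of higher promoters, NF-Y in 34.6% of all, 32.5% of higher and 35.5% of lower, PU.1 in 2.47% of all and 3.38% of higher, E2F in 0.712% and the interferon motif in 7.34% of all. The cause of these differences is the shorter window. Total counts of 5090418 to 30753380 limit genes under about 1 CPM, and a call that was not made at this depth does not show that a gene was unchanged.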

Other observations

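Genes better known from liver and muscle also differed between Control and UIRI d7. Of 4 tested genes of skeletal muscle, pancreas and liver 3 fell and 1 rose. Alb, plasma albumin, was at 0.675 to 2.47 CPM (median 1.53) in Control and 0 to 0.327 CPM (median 0.202) in UIRI d7 (log2 fold change -2.95, SE 0.61, adjusted p = 0.000293), and Apoa2 and Serpina1a, other plasma proteins, had log2 fold changes of -1.55 and -1.63. The call of Serpina1a (adjusted p = 0.034) was lost without any 1 of 6 libraries (adjusted p from 0.0569 to 0.0962). Acta1, the actin of skeletal muscle, was at 0 to 0.646 CPM (median 0.189) in Control and 0.52 to 2.78 CPM (median 1.1) in UIRI d7 (log2 fold change 2.55, SE 0.66, adjusted p = 0.00277), and the levels of the groups overlapped. Other defining genes of that muscle were near 0: Ckm, its creatine kinase, had at most 2 counts in any of the 12 libraries, Myh4 at most 1, and Tnnt3 was at 0 in every Control library and reached 13 counts in UIRI d7.

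The spread within UIRI d7 differed widely between genes that changed. Entpd5, a nucleotidase of the secretory pathway, was among the least variable, at 318 to 435 CPM (median 376) in Control and 107 to 126 CPM (median 115) in UIRI d7 (log2 fold change -1.71, SE 0.12, adjusted p = 4.94e-11). Among the most variable, Cstb, an inhibitor of cathepsins, was at 13.5 to 392 CPM (median 349) in UIRI d7, and Tmsb4x, an actin-binding peptide, at 89 to 2860 CPM (median 1530). UIRI d7 replicate 4 was the lowest library for both, at 13.5 and 89 CPM. Without this library the log2 fold changes were 1.67 for Cstb and 1.98 for Tmsb4x, against 1.42 and 1.73 with it. The part of library quality in these low values was not tested.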
